A study of Mus musculus with 4 samples.

Results

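The CA2-like nuclei described here are 90 of 47103 nuclei kept from 4 single-nucleus RNA libraries of mouse hippocampus, a share of 0.191% (exact 95% binomial interval 0.154% to 0.235%). That interval pools the libraries and covers counting error only. Per library the share ran from 0.136% to 0.303%. A barcode was kept with at least 600 unique molecular identifiers (UMIs, counts of distinct RNA molecules) and at most 5% mitochondrial UMIs. A nucleus was taken as CA2-like when the 6 genes Rgs14, Cacng5, Stard5, Arhgef26, 6530403H02Rik and Gm43154 together gave at least 3 UMIs from at least 2 of them. That sum also had to reach the summed UMIs of 8 CA3 genes (Grik4, Trps1, Ccbe1, Nectin3, Gm32647, Cpne7, 9530026P05Rik and Adamtsl1) and exceed those of 6 CA1 and dentate genes (Man1a, Galntl6, Gm2164, Prox1, Glis3 and Maml2). Gates with the same minimum on the CA3, CA1 (Man1a, Galntl6 and Gm2164) and dentate genes (Prox1, Glis3 and Maml2) gave 3636 CA3, 6445 CA1 and 2125 dentate nuclei for comparison. These gates allowed no tie. The CA3 sum had to exceed the CA2 sum and that of the CA1 and dentate genes together. The CA1 and dentate sums had only to exceed each other sum separately. Of these dentate nuclei 53.3% held 2 or more UMIs of inhibitory neuron markers, so the class is named by its gate and is not taken as granule cells alone. The gate genes chose the nuclei, so their values are given as a description and were not tested.

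All 4 mice carried ArcCreERT2::eYFPflx, in which the activity-dependent Arc promoter drives a drug-inducible Cre that switches on a yellow fluorescent reporter for good. The libraries hold nuclei whether tagged or not, and the reporter is not among the 32285 features counted, so the tag was not analysed here. Mice of the trained group had learned active place avoidance, a task in which a mouse must stay out of a shock zone on an arena, and controls were untrained. Hippocampal tissue was collected 3 days after a retention test, with no recall session in between, so the study asked what differs while a memory is being kept. Each group had 2 libraries, each taken as 1 mouse, and all p-values rest on these few libraries. In the tests between classes of nuclei the spread was taken as the same for all genes. Those p-values therefore do not measure how far a single gene varied between libraries.

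CA2 is the short stretch of pyramidal neurons between CA3 and CA1. It receives input from the entorhinal cortex, from dentate granule cells and from CA3, projects to CA1, and is known for its part in social memory. Its pyramidal neurons resist long-term potentiation at the inputs from CA3, a trait tied to Rgs14, a regulator of G-protein signalling, to strong calcium buffering and extrusion, and to the perineuronal nets around the cells. Cacng5 encodes an auxiliary subunit of AMPA receptors, Stard5 a sterol-binding protein and Arhgef26 a guanine nucleotide exchange factor.

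The libraries differed in depth. Kept barcodes numbered 6019 and 12205 in Trained replicates 1 and 2 and 16916 and 11963 in Untrained replicates 1 and 2, with median depths of 736 to 1080 UMIs. Between 17 and 65 kept barcodes were shared by any pair of libraries. In the same order the CA2-like nuclei numbered 9, 37, 23 and 21, and their summed counts were 8390, 54825, 39753 and 34516 UMIs. Trained replicate 1 stands apart: 1 UMI in its CA2 sum is worth 119 CPM (each count scaled by the summed UMIs of its class and library), against 18.2 to 29.0 CPM in the other 3 libraries. With fewer than 10 nuclei it did not enter the tests of CA2 against CA3 or CA1, and its values are given beside them. The edgeR log2 differences carry a further scaling between sums (TMM) that CPM do not. Small differences can therefore differ in sign between CPM and log2 values. The CA2-like nuclei had a median of 1498.5 UMIs and 982.5 genes per nucleus, and the CA3 nuclei 1277 UMIs and 881 genes.

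Most CA2-like nuclei sat close to the threshold of the rule. Of the 90, 57 held exactly 3 gate UMIs, 18 held 4, 8 held 5, 5 held 6, and the highest held 9. In 52 nuclei the UMIs came from 2 of the 6 genes, in 29 from 3, in 8 from 4 and in 1 from 5. The CA3 genes were at 0 in 16 of the 90 nuclei, and in 17 the CA2 and CA3 sums were equal.

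**Figure D1:**
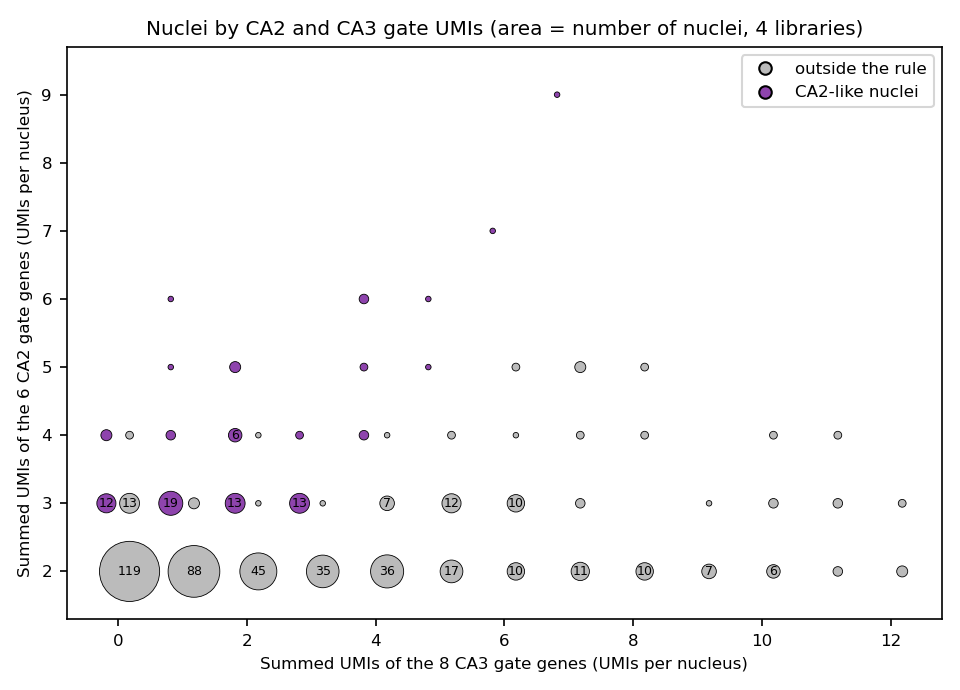
Kept nuclei by summed UMIs of the 8 CA3 gate genes (horizontal, up to 12) and of the 6 CA2 gate genes (vertical, 2 or more), all 4 libraries pooled; circle area and printed numbers give nuclei. Purple circles are the 90 CA2-like nuclei and grey ones nuclei that fail the rule, and 57 of the 90 lie on the row of 3 UMIs.

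The gate genes took very unequal parts. Across the 90 nuclei 6530403H02Rik gave 112 UMIs, Arhgef26 81, Stard5 58 and Gm43154 52. The classical CA2 genes Rgs14 and Cacng5 gave 13 UMIs each. Arhgef26 and 6530403H02Rik were the most frequent pair, found together in 36 nuclei, while Rgs14 and Cacng5 met in 1. Rgs14 was seen in 0, 4, 2 and 7 of the 9, 37, 23 and 21 CA2-like nuclei of Trained replicates 1 and 2 and Untrained replicates 1 and 2. In the same order Cacng5 was seen in 3, 2, 6 and 1. Rgs14 was seen in 59 of 3636 CA3 nuclei and in 166 of 6445 CA1 nuclei. Among the CA3 gate genes the members carried Grik4, a kainate receptor subunit, in 42.2% of nuclei and Cpne7, a copine, in 30%, against 68.4% and 28.2% of CA3 nuclei. Trps1, a zinc finger transcription factor, was in 18.9% of members and 74.8% of CA3 nuclei.

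Scattered gate UMIs can also turn up in other cells, so the gate was read in oligodendrocyte nuclei. Whether such UMIs come from free RNA, and whether oligodendrocytes lack these genes, was not tested. Oligodendrocyte nuclei were those with at least 5 UMIs from at least 3 oligodendrocyte markers. They also had to hold under 2 UMIs of the CA3 genes and under 2 of the CA1 and dentate genes together. Among them, 8.57% to 12.8% per library carried any CA2 gate UMI at median depths of 778 to 822.5 UMIs, against 19.2% to 31.3% of CA3 nuclei. None of the 35, 138, 245 and 226 oligodendrocyte nuclei passed the CA2 rule, which allows a share of up to 8.57%, 2.17%, 1.22% and 1.33%. The CA2-like nuclei were deeper, at a median of 1498.5 UMIs. These counts therefore do not show how often deeper neurons pass the rule on stray UMIs. In barcodes with at most 350 UMIs the 6 genes stood at 85.2 to 129 CPM, and in CA3 nuclei at 221 to 330 CPM.

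Each gate gene was then read in nuclei chosen by the other 5, with all other conditions kept, so that the gene had no part in the choice. Pooled over the libraries, Rgs14 was found in 4.94% of such CA2-like nuclei (exact 95% binomial interval 1.36% to 12.2%, 81 nuclei) and 1.68% of CA3 nuclei. Cacng5 was found in 8.24% (3.38% to 16.2%, 85 nuclei) and 1.40%, with 5 of the 7 positive nuclei in Untrained replicate 1. For Stard5 the shares were 17.5% (8.75% to 29.9%, 57 nuclei) and 7.0%. Gm43154, a predicted gene, was in 14.5% (6.86% to 25.8%, 62 nuclei) against 1.59%. The shares for Arhgef26 were 25.0% of 44 nuclei and 11.6%, and for 6530403H02Rik 27.3% of 33 nuclei and 11.3%. These intervals pool the libraries and cover counting error only, not the spread between libraries.

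Of these 6 genes, 5 were found in a higher share of CA2-like than of CA3 nuclei in 3 of 4 libraries, Trained replicate 1 being the exception with 0 nuclei positive. Rgs14 was higher in 1 library, Untrained replicate 2, where 4 of 18 nuclei carried it. It was found in 0 of 9, 0 of 33 and 0 of 21 nuclei of Trained replicates 1 and 2 and Untrained replicate 1, which allows shares of up to 33.3%, 9.09% and 14.3%. The mean difference for Rgs14 was 3.91 percentage points and turned to -1.65 without Untrained replicate 2. That for Cacng5 was 6.07 points and 1.11 without Untrained replicate 1. For Arhgef26 it moved from 9.13 to 5.13 and for 6530403H02Rik from 10.2 to 4.38 without Untrained replicate 1, and for Stard5 from 9.74 to 4.98 without Untrained replicate 2. Without Trained replicate 1 the values for Arhgef26 and 6530403H02Rik were 14.2 and 16.02. By exact two-sided sign flips over the 4 libraries p was 1 for Rgs14, 0.25 for Cacng5, Stard5 and Gm43154, and 0.375 for Arhgef26 and 6530403H02Rik. The smallest p that 4 libraries allow is 0.125, so none could pass 0.05. With every nucleus thinned to 600 UMIs only 10 to 20 CA2-like nuclei were left per gene. Rgs14, 6530403H02Rik and Gm43154 were then higher than in CA3 in 1 library each, Cacng5 and Stard5 in 2 and Arhgef26 in 3.

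The name was also checked against 16 CA2 markers that the rule did not use. Nr3c2, the mineralocorticoid receptor, which is needed for CA2 identity in the mouse, stood at 1311 and 1423 CPM in the CA2-like nuclei of Trained replicates 1 and 2 and at 1409 and 1159 CPM in Untrained replicates 1 and 2. In CA3 nuclei it was at 722, 786, 591 and 677 CPM and in CA1 nuclei at 873, 803, 777 and 770 CPM. The CA2-like level was above both in every library. Against CA3 its log2 difference was 0.75 (SE 0.16, adjusted p = 0.000199, edgeR with p-values adjusted over all genes tested), and against CA1 it was 0.55 (SE 0.15, adjusted p = 0.0173). The CA3 call was lost without Untrained replicate 1 (0.61, adjusted p = 0.11), and the CA1 call without Untrained replicate 1 (0.51, 0.24) or Trained replicate 2 (0.42, 0.47). Neither passed with DESeq2 (0.065 and 0.30). With at least 4 gate UMIs in every gate the differences were 0.24 and 0.14. That setting also lost Untrained replicate 1, which then held 9 CA2-like nuclei, and rested on 14 and 10 nuclei of the other 2 libraries.

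Ptpn5, the striatal-enriched tyrosine phosphatase STEP, stood at 238, 255, 50.3 and 203 CPM in CA2-like nuclei, from 2, 14, 2 and 7 UMIs, and between 58.2 and 74.1 CPM in CA3 nuclei. Untrained replicate 1 lay below its CA3 level and the other 3 libraries above. Ptpn5 passed the test against CA1 (log2 difference 1.39, SE 0.41, adjusted p = 0.0247) and not against CA3 (1.15, SE 0.40, adjusted p = 0.121), where it passed once nuclei with inhibitory or thalamic markers were left out (1.55, 0.0186) or Trained replicate 1 was added (1.32, 0.031). Without Trained replicate 2 the CA1 call was lost (0.76, adjusted p = 0.93), as it was without Untrained replicate 2 (1.33, adjusted p = 0.25) and with DESeq2 (1.25, 0.19). Necab2, a neuronal calcium-binding protein, pooled to 94.6 CPM in CA2-like nuclei and 30.9 CPM in CA3 nuclei from 13 UMIs. Its log2 difference of 1.25 (SE 0.61) did not pass. Adora1, the adenosine receptor gene that marks CA2, was above CA3 in all 4 libraries, at 119, 91.2, 151 and 116 CPM against 102, 69.5, 60.4 and 62.4 CPM, with a log2 difference of 0.64 (SE 0.46) that did not pass. Pcp4, a calmodulin-binding peptide and standard CA2 label, pooled to 247 CPM in CA2-like, 203 CPM in CA3 and 213 CPM in CA1 nuclei, and its log2 difference from CA3 was 0.08 (SE 0.29).

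Several textbook markers were too sparse to read. Ntf3 gave 5 UMIs in all 90 nuclei, Map3k15 4, Vcan 4, Amigo2 2, Acan 2, Avpr1b 1, Fgf2 1 and Actn2 1. Sostdc1, Tgfb1i1 and Oxtr gave none among the 137484 UMIs of all members, so that they were not detectable at this depth. Of the 16 markers 7 passed the count filter against CA3. Of these 1 was called higher (0.571% of all genes tested were) and 6 lay above 0, with a median log2 difference of 0.75 against -0.29 over all 8936 genes tested. Against CA1 8 passed, 2 were called higher, and the median was 1.02 against -0.35 over all 10105 genes. Summed, the 16 markers stood at 1883 to 2384 CPM per library in CA2-like nuclei, 1081 to 1243 CPM in CA3 and 1112 to 1321 CPM in CA1 nuclei.

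**Figure D2:**
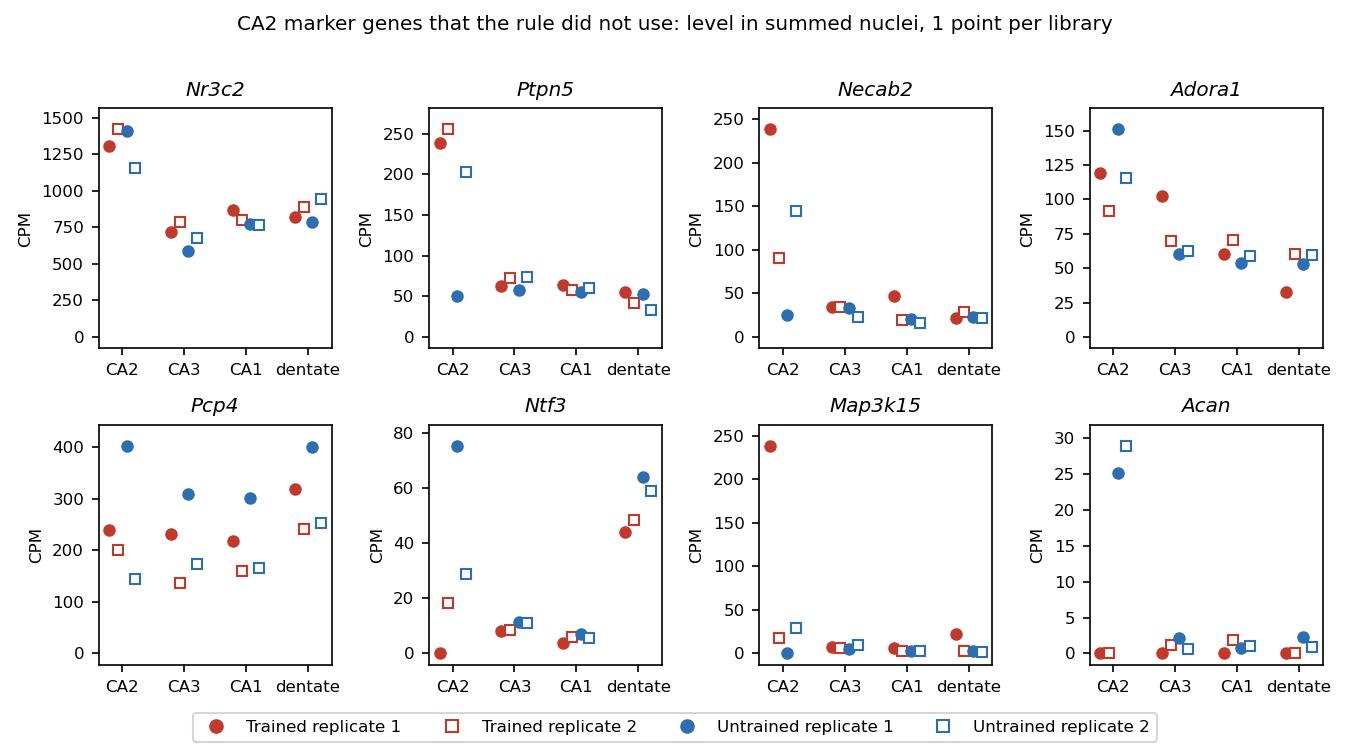
Level in CPM of 8 CA2 markers that the rule did not use, in summed CA2-like, CA3, CA1 and dentate nuclei; each point is 1 library (red trained, blue untrained, filled replicate 1, open replicate 2). Nr3c2 lies between 1159 and 1423 CPM in CA2-like nuclei, above all 12 other points of its panel, whereas Pcp4 overlaps between classes.

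The level of Nr3c2 followed the number of gate UMIs only in part. With all other conditions of the rule kept, Nr3c2 stood at 475 CPM in nuclei with 1 gate UMI, 940 CPM in the 139 nuclei with 2 UMIs from 2 genes and 515 CPM in the 23 nuclei whose 3 or more UMIs came from 1 gene. Inside the rule it was at 1260 CPM with 3 UMIs, 1573 CPM with 4 and 1333 CPM with 5 or more. The other 15 markers summed to 625 CPM with 1 gate UMI, 762 CPM with 2, 793 CPM with 3, 885 CPM with 4 and 667 CPM with 5 or more. At the border to CA3 it was at 1200 CPM in the 17 nuclei with equal CA2 and CA3 sums and at 1621 CPM in the 8 nuclei whose CA2 sum fell 1 UMI short. There the other 15 markers summed to 686 and 811 CPM, beside 812 CPM in the 73 nuclei with the CA2 sum above the CA3 sum.

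Inhibitory and thalamic markers were lower in the CA2-like than in the CA3 sums, and oligodendrocyte markers were at a like level. The 6 excitatory neuron markers, among them the vesicular glutamate transporter Slc17a7, summed to 2371 to 3099 CPM per library, near the 2199 to 2591 CPM of CA3 nuclei. The 9 inhibitory markers summed to 201 to 715 CPM with 8 of 9 detected and Kcnmb2 at 0, against 812 to 1344 CPM in CA3 nuclei. The 4 thalamic markers summed to 116 to 477 CPM with Lef1 and Prkch at 0, against 476 to 974 CPM in CA3 nuclei. The 6 oligodendrocyte markers lay at 579 to 1073 CPM, beside 815 to 929 CPM in CA3 nuclei. The 5 endothelial markers gave 2 UMIs in all, with Flt1, Cldn5, Pecam1 and Mecom at 0. Of the 90 nuclei 9 were marked as probable doublets by simulation (10.0%), against 9.35% of CA3 nuclei.

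Against CA3 nuclei, the CA2-like nuclei carried more RNA of Asic2, Stxbp5l, Egfem1, Asph and Srgap2, among others, and less of Cntnap2, Kcnc2, Hs6st3 and Cdh9. In the 3 libraries with enough nuclei 195 of 8936 genes tested passed an adjusted p of 0.05 (2.18%), 51 higher (0.571%) and 144 lower (1.61%) in CA2-like nuclei. Of the 51, 39 were above CA3 in all 4 libraries (0.436%), and of the 144, 119 were below (1.33%). Inhibitory markers gave 2 or more UMIs in 24.0% of CA3 nuclei and 6.67% of CA2-like nuclei, and thalamic markers in 14.9% and 5.56%. With such nuclei left out of both classes 167 genes of 7018 passed, 74 higher and 93 lower, and 124 of the 195 were among them. No cell type was assigned to the nuclei left out. The marker genes themselves then hold under 2 UMIs in every nucleus that stays, so their own values in this setting are no test. The share of higher genes among those called moved from 26.2% to 44.3%. DESeq2 called 54 genes, 22 higher and 32 lower, all within the 195, and the count fell to 99 without Untrained replicate 2. The gate genes themselves had been picked with these nuclei known, so genes that vary with them are not wholly independent of the rule.

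Asic2, a subunit of acid-sensing ion channels, had the smallest p of the genes higher than in CA3. It stood at 2384 and 2535 CPM in the CA2-like nuclei of Trained replicates 1 and 2 and at 2490 and 2839 CPM in Untrained replicates 1 and 2. CA3 nuclei had 584, 615, 662 and 757 CPM and barcodes with at most 350 UMIs 135 to 289 CPM. The groups did not overlap, and the log2 difference was 1.74 (SE 0.14, adjusted p = 8.3e-34). In CA1 nuclei Asic2 was at 832 to 1093 CPM, and the log2 difference from CA1 was 1.06 (SE 0.13, adjusted p = 1.06e-12).

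Stxbp5l, which encodes tomosyn-2, a syntaxin-binding brake on vesicle release, was at 1669, 2225, 1912 and 2115 CPM in CA2-like and at 684, 724, 623 and 636 CPM in CA3 nuclei. Its log2 difference from CA3 was 1.44 (SE 0.14, adjusted p = 8.32e-21) and from CA1 1.55 (SE 0.14, adjusted p = 8.68e-25). Asph, whose locus encodes aspartate hydroxylase and the junctional calcium-store protein junctin, was at 477, 565, 528 and 493 CPM, well above the 128 to 163 CPM of CA3 nuclei. It differed from CA3 by 1.61 (SE 0.24) and from CA1 by 2.24 (SE 0.25) on the log2 scale. Srgap2, a GTPase-activating protein, was at 954, 857, 352 and 898 CPM, beside 199 to 278 CPM in CA3 nuclei. It differed by 1.32 (SE 0.20) from CA3 and 1.78 (SE 0.21) from CA1. Arhgef28, a guanine nucleotide exchange factor, pooled to 320 CPM in CA2-like, 82.3 CPM in CA3, 85.8 CPM in CA1 and 125 CPM in dentate nuclei. Stxbp5l, Asph, Srgap2 and Arhgef28 were above both neighbouring classes in every library. Arhgef28 no longer passed with at least 4 gate UMIs (1.31 from CA3, adjusted p = 0.64), a fit on the 2 libraries left, whereas it passed on the same 2 libraries with the rule as given (1.65, adjusted p = 0.00327).

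Egfem1 and Dab1 gave another pattern, in which CA3 was the low class. Egfem1, an EGF-like and EMI domain protein, was at 1669, 1733, 1384 and 1883 CPM in CA2-like and at 453 to 562 CPM in CA3 nuclei, while CA1 nuclei had 1343 to 1624 CPM. The log2 difference was 1.53 (SE 0.15, adjusted p = 8.32e-21) from CA3 and -0.09 (SE 0.15, adjusted p = 0.922) from CA1. Dab1, the adaptor of the reelin receptors, was at 3814, 3593, 2742 and 3564 CPM, against 1172 to 1587 CPM in CA3 and 2318 to 2708 CPM in CA1 nuclei. It differed by 1.1 (SE 0.13) from CA3 and by 0.16 (SE 0.13, adjusted p = 0.758) from CA1.

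The other genes described on this side had log2 differences from CA3 between 0.87 and 1.40. Cacna2d3, an auxiliary calcium channel subunit, differed by 0.96 (SE 0.15). Kalrn, an exchange factor of dendritic spines, differed by 0.87 (SE 0.13). The atypical cadherin Fat3 differed by 1.07 (SE 0.18) and Pip5k1b, a phosphoinositide kinase, by 1.40 (SE 0.25), and both calls were lost without Trained replicate 2 (0.76 with adjusted p = 0.081, and 1.07 with adjusted p = 0.11). All 12 genes that the naming rule chose on this side passed with DESeq2 and with the nuclei carrying inhibitory or thalamic markers left out.

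**Figure D3:**
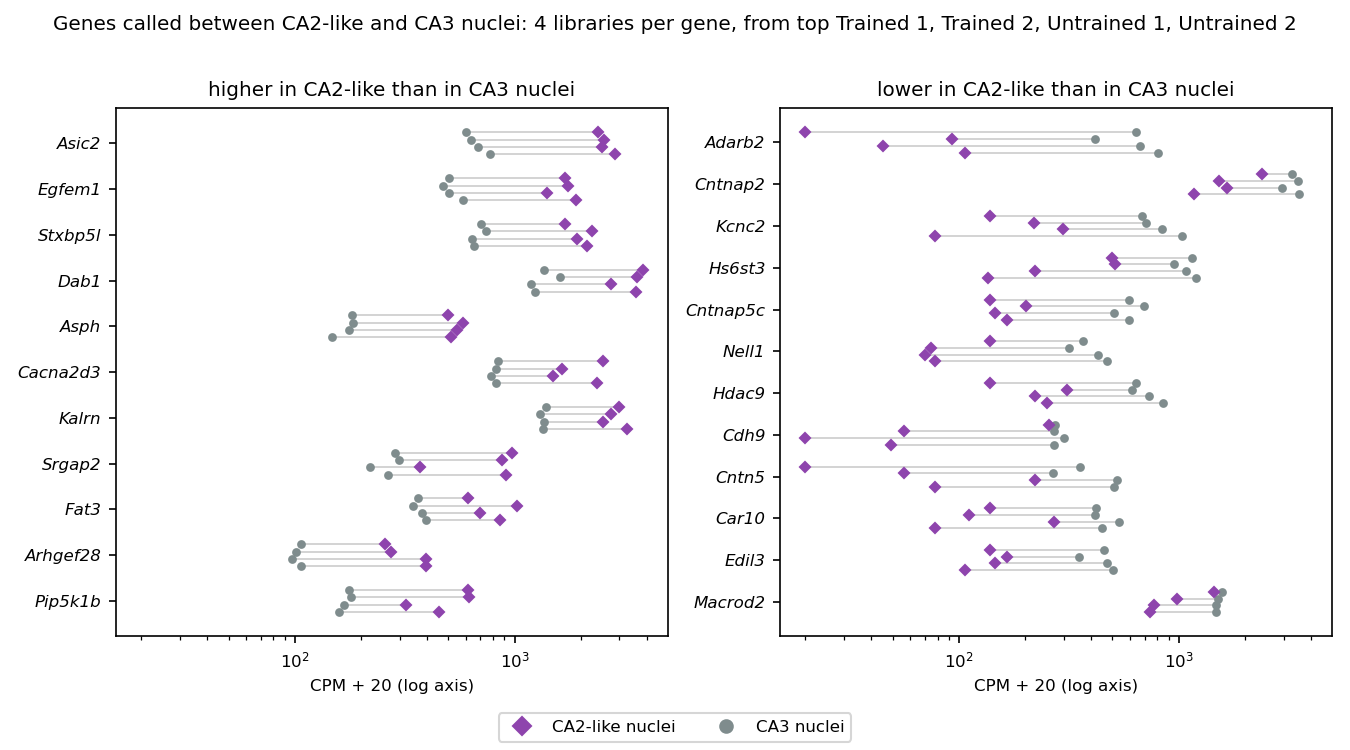
Level in CPM plus 20, on a log axis, of genes named as higher (left) and lower (right) in CA2-like than in CA3 nuclei; each gene has 4 lines, 1 per library, joining CA2-like (purple diamonds) and CA3 nuclei (grey circles). Asic2 lies at 2384 to 2839 CPM in the CA2-like sums and at 584 to 757 CPM in the CA3 sums. On the right, Adarb2 and Cntn5 lost their call with nuclei carrying inhibitory or thalamic markers left out, and Adarb2 is itself such a marker.

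Of the genes lower in CA2-like than in CA3 nuclei, Cntnap2, a neurexin-family protein that gathers potassium channels on axons, was at 2384, 1514, 1635 and 1159 CPM in CA2-like nuclei and at 3253, 3487, 2927 and 3501 CPM in CA3 nuclei. The log2 difference was -1.40 (SE 0.15, adjusted p = 2.32e-17). Kcnc2, a fast-spiking type potassium channel, was at 119, 201, 277 and 57.9 CPM against 658, 691, 823 and 1013 CPM, a difference of -2.35 (SE 0.25). Hs6st3, a heparan sulphate sulphotransferase, was at 477, 493, 201 and 116 CPM against 931 to 1184 CPM, a difference of -2.01 (SE 0.22). Cdh9, a cadherin of mossy fibre synapses onto CA3, gave 5 UMIs in all CA2-like nuclei, 36.4 CPM pooled, against 260 CPM in CA3 nuclei, a difference of -3.69 (SE 0.53). These 4 genes remained called when nuclei with inhibitory or thalamic markers were left out, with differences of -1.35, -2.00, -2.27 and -4.17.

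Cntnap5c, a second neurexin-family gene, pooled to 153 CPM against 585 CPM, and Nell1, a secreted glycoprotein, to 58.2 CPM against 377 CPM. Car10, a carbonic anhydrase-related ligand of neurexins, pooled to 131 CPM against 438 CPM, and Edil3, an integrin ligand, to 124 CPM against 418 CPM. Hdac9, a histone deacetylase, pooled to 240 CPM against 701 CPM. Macrod2, an ADP-ribose hydrolase, pooled to 873 CPM against 1478 CPM. Their log2 differences ran from -2.99 for Nell1 to -1.04 for Macrod2. Adarb2, which marks a branch of interneurons, and the contactin Cntn5 lost their calls in one setting. Adarb2 differed by -3.44 (SE 0.35) and by -0.54 (SE 0.81, adjusted p = 0.948) once nuclei with inhibitory or thalamic markers were left out, and Cntn5 moved from -2.31 (SE 0.34) to -0.87 (SE 0.54, adjusted p = 0.69). Adarb2 is itself among the markers that chose the nuclei left out, so its move there was largely set in advance.

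Among gene groups, calcium handling held higher and no lower calls. Of 22 tested genes of calcium buffering, extrusion and stores 3 were called higher and none lower, beside 0.571% and 1.61% of all genes. The list's median log2 difference was -0.29, beside -0.29 for all genes tested, and 8 of the 22 lay above 0. Slc8a1, the sodium-calcium exchanger of the plasma membrane, was at 1669, 1751, 1534 and 2376 CPM in CA2-like and at 927, 1067, 841 and 932 CPM in CA3 nuclei. Its log2 difference was 0.76 (SE 0.14, adjusted p = 2.31e-05), and 0.61 (adjusted p = 0.054) without Untrained replicate 2. Slc24a3, a potassium-dependent sodium-calcium exchanger, was at 596, 620, 755 and 811 CPM against 315 to 363 CPM, a difference of 0.85 (SE 0.19), which without Untrained replicate 1 became 0.76 with adjusted p = 0.064. Camk4, a nuclear calcium and calmodulin-dependent kinase, was at 954, 511, 629 and 493 CPM against 187 to 232 CPM in CA3 and 143 to 177 CPM in CA1 nuclei. It differed by 1.1 (SE 0.22) from CA3 and by 1.63 (SE 0.23) from CA1. With at least 4 gate UMIs, which also left 2 libraries, none of the 3 passed against CA3 (Slc8a1 0.60, Slc24a3 0.75 and Camk4 0.27). On the same 2 libraries with the rule as given Slc8a1 (0.80) and Camk4 (0.99) passed and Slc24a3 (0.76) did not.

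Axon guidance and synaptic adhesion genes gave mostly lower calls. Of 37 tested 17 were called lower and 1 higher than in CA3, beside 1.61% and 0.571% of all genes tested. The median log2 difference was -0.75 against -0.29 for all genes. With nuclei carrying inhibitory or thalamic markers left out, 12 of the 17 remained called lower, and Adgrl3, Cntn4, Cntn5, Robo1 and Tenm3 did not. Unc5d and Epha3, a netrin receptor and an ephrin receptor, differed by -2.60 (SE 0.45) and -1.68 (SE 0.31). Tenm2, a teneurin adhesion protein, was at 2265, 3083, 2314 and 1507 CPM against 3216 to 3719 CPM (-0.76, SE 0.14), with the call lost without Untrained replicate 2 (-0.53, adjusted p = 0.19). Unc5c, another netrin receptor, lay between its neighbours at 954, 967, 1057 and 521 CPM, beside 1306 to 1474 CPM in CA3 and 483 to 530 CPM in CA1 nuclei. It differed by -0.88 (SE 0.17) from CA3, with the call lost without Untrained replicate 2 (-0.65, adjusted p = 0.087). From CA1 it differed by 0.56 (SE 0.18, adjusted p = 0.0445), a call lost without Trained replicate 2 (0.41, 0.73), without Untrained replicate 1 (0.39, 0.72) and with DESeq2 (0.50, 0.48). Robo1, a receptor of Slit ligands, differed by -0.91 (SE 0.18), and by -0.42 (adjusted p = 0.34) with nuclei carrying inhibitory or thalamic markers left out. Lrrtm4, a postsynaptic adhesion protein, was the member called higher. It was at 2741, 2718, 2817 and 2057 CPM against 1362 to 1870 CPM, a difference of 0.45 (SE 0.13, adjusted p = 0.0399). The call was lost without Trained replicate 2 (0.19, 0.88), without Untrained replicate 1 (0.48, 0.34) and with DESeq2 (0.48, 0.52). Robo1 and Lrrtm4 were named after their values had been seen.

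Receptor and channel lists gave few calls against CA3, all lower apart from Nr3c2. Among all genes tested 1.61% were called lower and 0.571% higher. Of 14 NMDA, kainate and metabotropic glutamate receptors 4 were lower, among them Grik2 by -1.02 (SE 0.17), Grm7 by -0.65 (SE 0.15) and Grik1 by -2.63 (SE 0.64). Grik2, a kainate receptor subunit abundant in CA3, was at 358, 839, 679 and 695 CPM against 1233 to 1356 CPM. Grik1 rested on 3 UMIs, all in Trained replicate 2, and moved to -0.31 with nuclei carrying inhibitory or thalamic markers left out. Its call was also lost without Untrained replicate 1 (-2.10, adjusted p = 0.10) or 2 (-1.94, 0.32). The Grm7 call was lost without Untrained replicate 1 or 2 (-0.70 with 0.053, and -0.45 with 0.47). Of 13 AMPA receptor genes 1, Gria4, was lower by -1.26 (SE 0.27), a value of -0.57 (adjusted p = 0.521) without nuclei carrying inhibitory or thalamic markers.

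Of 7 RGS genes outside the gate 2, Rgs7 and Rgs6, were lower, by -0.85 (SE 0.20) and -1.56 (SE 0.43), beside 1.61% of all genes tested. Both calls were lost without Untrained replicate 2 (-0.72 with adjusted p = 0.16, and -1.22 with 0.40), and that of Rgs6 also without Trained replicate 2 (-1.37, 0.13). Of 16 potassium and HCN channel genes Kcnc2 and Kcnq3 were lower, Kcnq3 by -1.03 (SE 0.19). Of 10 neuromodulator and steroid receptors Nr3c2 was higher and the muscarinic receptor Chrm3 lower, by -0.95 (SE 0.20). Of 7 extracellular matrix genes the perineuronal net protein Tnr was lower, by -0.88 (SE 0.24), a call lost without Trained replicate 2 (-0.99, 0.07) or Untrained replicate 2 (-0.60, 0.63). By DESeq2 the calls of Slc24a3, Tenm2, Unc5c, Robo1, Grm7, Gria4, Rgs7, Rgs6, Chrm3 and Tnr did not pass, with adjusted p from 0.063 for Slc24a3 to 0.30 for Tnr.

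The remaining lists gave few or no calls against CA3, where 1.61% of all genes tested were called lower. Of 15 cyclases and phosphodiesterases 1, Pde7b, was lower, on 1 UMI in all CA2-like nuclei against 139 CPM in CA3 nuclei. The Pde7b call was lost with nuclei carrying inhibitory or thalamic markers left out (-2.64, adjusted p = 0.35). Of 15 growth factor genes 1, the neuregulin receptor Erbb4, was lower by -2.51 (SE 0.49), and by -0.22 (adjusted p = 0.988) with those nuclei left out. Its call was also lost without Untrained replicate 2 (-1.82, 0.086) and with DESeq2. Erbb4 is also 1 of 3 inhibitory markers called lower of 8 tested, beside Adarb2 and Nxph1, and the Nxph1 call (3 UMIs in all) was lost without Untrained replicate 1. Of 3 thalamic markers 2, Ntng1 and Lef1, were lower. Ntng1 moved from -1.91 to -0.04 with those nuclei left out. Lef1 is at 0 in CA2-like nuclei and lost its call with any one of the 3 tested libraries left out. Erbb4, Adarb2, Nxph1, Ntng1 and Lef1 are among the markers that chose the nuclei left out, so their values there are no test. Among glial lists the oligodendrocyte gene St18 and the precursor gene Lhfpl3 were lower, by -2.29 (SE 0.69) and -1.68 (SE 0.45), on 3 and 9 UMIs in all CA2-like nuclei. Both calls were lost in several settings, among them without Untrained replicate 2 (St18 -1.76 and Lhfpl3 -2.05) and without Untrained replicate 1 (-2.55 and -1.25). No gene was called among the tested astrocyte, microglia, choroid plexus, cortical, CA1, dentate and excitatory markers.

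Genes of memory and plasticity were read next, since the study concerns training, and 0 of the 10 tested were called against CA3. Grin2b, an NMDA receptor subunit, was at 2265, 1842, 2189 and 1622 CPM, with CA3 nuclei at 1644 to 1748 CPM (-0.07, SE 0.14). Its pooled CPM, which are not TMM-scaled, lay the other way, at 1913 in CA2-like and 1703 in CA3 nuclei. Camk2a, the alpha subunit of CaMKII, was at 715, 1295, 1082 and 1014 CPM, with CA3 nuclei at 759 to 929 CPM (0.20, SE 0.16). Gria1, an AMPA receptor subunit, differed from CA3 by -0.11 (SE 0.14) and Homer1, a postsynaptic scaffold, by 0.29 (SE 0.28). Prkcz, Prkci and Wwc1, 2 atypical protein kinases C and the scaffold KIBRA, rested on 15, 4 and 12 UMIs and differed by -0.55 (SE 0.42), -0.81 (SE 0.78) and -0.42 (SE 0.45). The activity-regulated genes were at the edge of detection, with 0 UMIs of Arc, 1 of Bdnf and 3 of Npas4 in all CA2-like nuclei. Against CA1 the same list gave 1 lower call, Gria1.

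CA1, the other neighbour, differed in more genes. Of 10105 genes tested 325 passed (3.22%), 102 higher (1.01%) and 223 lower (2.21%) in CA2-like nuclei. Of the 102, 74 were above CA1 in all 4 libraries (0.732%), and of the 223, 171 were below (1.69%). The count was 196 without Trained replicate 2, 207 with Untrained replicate 1 left out and 206 with Untrained replicate 2 left out, and DESeq2 called 141, 55 higher and 86 lower. This test shares the CA2-like sums with the one against CA3, so the values are given side by side and no overlap was tested.

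Cpne4, a copine listed as a CA3 marker, was at 834, 985, 956 and 1159 CPM in CA2-like nuclei and at 214, 75.5, 88.1 and 86.9 CPM in CA1 nuclei. The log2 difference from CA1 was 3.4 (SE 0.20, adjusted p = 2.3e-59). CA3 nuclei had 558 to 631 CPM, a difference of 0.56 (SE 0.17, adjusted p = 0.0381) that no longer passed with any one of the 3 tested libraries left out (0.50 to 0.60) or with DESeq2. Of 5 CA3 markers outside the gate tested against CA3, Cpne4 was the 1 called and the only 1 above 0. The list median was -0.62, beside -0.29 for all genes tested. Against CA1 4 of the 5 lay above 0, with a median of 0.66. Iyd and Coch, also on that list, gave 0 UMIs in CA2-like nuclei. Mctp1, a calcium-sensing membrane protein, was at 1192, 876, 805 and 1043 CPM against 126 to 216 CPM in CA1, a difference of 2.47 (SE 0.20). Hs3st4, a heparan sulphate sulphotransferase, was at 1073, 1058, 1459 and 1941 CPM against 290 to 372 CPM, a difference of 1.88 (SE 0.16), while CA3 nuclei had 1084 to 1402 CPM. Spock1, a matrix proteoglycan, and Mgat4c, a glycosyltransferase, differed from CA3 by -0.02 (SE 0.18) and -0.31 (SE 0.15) and from CA1 by 2.16 (SE 0.20) and 1.76 (SE 0.16).

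Frmpd4, a postsynaptic scaffold protein, differed from CA1 by 1.33 (SE 0.13) and Kcnq5, a channel of the M-current, by 1.5 (SE 0.13). Sox5, a transcription factor, was at 238, 620, 629 and 724 CPM against 140 to 189 CPM in CA1 and 261 to 329 CPM in CA3 nuclei. It differed by 1.82 (SE 0.21) from CA1 and by 0.81 (SE 0.20, adjusted p = 0.00373) from CA3, and Trained replicate 1 lay below its CA3 level of 261 CPM. The CA3 call was lost without Trained replicate 2 (0.82, adjusted p = 0.065), without Untrained replicate 2 (0.78, 0.088) and with DESeq2 (0.87, 0.087). Pde4d, a cyclic AMP phosphodiesterase, differed from CA1 by 1.13 (SE 0.14) and from CA3 by -0.06 (SE 0.14).

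Among genes lower than in CA1, Hs6st3 was at 477, 493, 201 and 116 CPM against 2175 to 2720 CPM, a log2 difference of -3.36 (SE 0.21, adjusted p = 4.52e-52). Kcnh7, a potassium channel of the ERG family, was at 238, 219, 403 and 174 CPM against 1483 to 1955 CPM (-2.99, SE 0.22), and CA3 nuclei had 227 to 429 CPM. Pex5l, the HCN channel partner TRIP8b, was at 119, 383, 478 and 290 CPM against 1317 to 1786 CPM (-2.34, SE 0.20), and CA3 nuclei had 313 to 421 CPM. Epha6 was at 2503, 2098, 1736 and 1420 CPM against 3823 to 4676 CPM (-1.54, SE 0.15). Sorcs3, a sorting receptor, gave 7 UMIs in all CA2-like nuclei, 50.9 CPM pooled, against 272 CPM in CA3 and 489 CPM in CA1 nuclei. It was lower than CA1 by -3.39 (SE 0.38) and lower than CA3 by -2.53 (SE 0.42).

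Iqgap2, a scaffold of the cytoskeleton, pooled to 116 CPM, beside 380 CPM in CA3 and 673 CPM in CA1 nuclei, and differed from CA1 by -2.86 (SE 0.30). Cntnap2 and Nell1, lower than in CA3 above, were lower than in CA1 by -1.71 (SE 0.15) and -3.41 (SE 0.38). The adhesion genes Ntm and Tenm3 differed from CA1 by -1.73 (SE 0.19) and -2.61 (SE 0.29). Kcnab1, an auxiliary potassium channel subunit, differed by -2.41 (SE 0.27), and Chrm3, at 358, 328, 604 and 666 CPM against 1165 to 1561 CPM, by -1.68 (SE 0.19). All 24 genes named on the 2 sides of this comparison passed with DESeq2 and without each library in turn.

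Several potassium and HCN channel genes were lower than in CA1. Of 17 tested 7 were lower and 1, Kcnq5, higher, beside 2.21% and 1.01% of all genes tested. The median was -0.85 against -0.35 for all genes. Inhibitory markers moved the same way, with 4 of 9 called lower than in CA1 and none higher, and sums of 201 to 715 CPM against 910 to 1613 CPM in CA1 nuclei. They gave 2 or more UMIs in 18.2% of CA1 and 6.67% of CA2-like nuclei. With such nuclei, and those carrying thalamic markers, left out all 7 channel genes remained called lower. Besides Kcnh7 the lower genes included Kcnq3 (-1.29, SE 0.19), Kcnd2 (-0.85, SE 0.14) and Kcnip4 (-0.71, SE 0.13). Kcnn2, a calcium-activated channel, differed by -0.90 (SE 0.22) and lost its call without Untrained replicate 1 (-0.65, adjusted p = 0.24), and the Kcnip4 call was lost without Untrained replicate 1 (-0.79, 0.067) or 2 (-0.67, 0.067). Kcnn2 was named after its values had been seen. Of 24 calcium genes Camk4 was higher, and Atp2b1, Itpr1 and Ryr3 were lower by -0.92 (SE 0.17), -1.21 (SE 0.26) and -0.68 (SE 0.18). The Ryr3 call was lost without Untrained replicate 1 (-0.64, 0.14) or 2 (-0.58, 0.17).

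Of 16 cyclases and phosphodiesterases Pde4d was higher and Adcy2 (-1.72, SE 0.29), Pde10a (-0.90, SE 0.20) and Adcy8 (-2.14, SE 0.53) were lower. The Adcy8 call rested on 6 UMIs and was lost without Trained replicate 2 (-1.62, adjusted p = 0.30) or Untrained replicate 1 (-1.94, 0.053). Of 37 adhesion and guidance genes 15 were lower and 2, Lrrtm4 (0.74, SE 0.14) and Unc5c, higher, beside 2.21% and 1.01% of all genes tested. With nuclei carrying inhibitory or thalamic markers left out 13 of the 15 remained called lower. Of 13 AMPA receptor genes 1, Gria1, was lower by -0.48 (SE 0.14), a call lost without Untrained replicate 1 (-0.40, 0.64) or 2 (-0.38, 0.53). Of 16 NMDA, kainate and metabotropic receptors Grin2a was lower by -0.87 (SE 0.14), and Grik1 by -2.38 (SE 0.67), a call lost without Untrained replicate 1 (-2.01, 0.13) or 2 (-1.89, 0.24). Of 9 CA1 markers outside the gate 2 were lower, among them Mpped1 by -2.45 (SE 0.56), and none was higher. Nrgn, a calmodulin-binding postsynaptic protein, was lower than in CA1 by -0.71 (SE 0.21), a call lost without Trained replicate 2 or Untrained replicate 1 (-0.67 and -0.68). Gpc5, a glypican listed here as an astrocyte marker, was lower by -1.60 (SE 0.25). Adamts17, a matrix protease, was higher by 1.73 (SE 0.46), and lost its call with any one of the 3 tested libraries left out (1.57 to 1.85). By DESeq2 the calls of Gria1, Grik1, Kcnn2, Ryr3, Adcy8, Nrgn and Mpped1 did not pass, with adjusted p from 0.054 for Mpped1 to 0.24 for Gria1.

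The share of CA2-like nuclei overlapped between trained and untrained libraries under the rule as given. It was 0.150% (exact 95% binomial interval 0.0684% to 0.284%) and 0.303% (0.214% to 0.418%) of kept nuclei in Trained replicates 1 and 2, and 0.136% (0.0862% to 0.204%) and 0.176% (0.109% to 0.268%) in Untrained replicates 1 and 2. Trained replicate 2 was highest and Trained replicate 1 lay between the untrained libraries. The log2 difference was 0.46, with an exact two-sided permutation p of 0.667 over 6 splits, the smallest possible being 0.333, and without Trained replicate 2 it was -0.05. In 2 settings over all 4 libraries the groups did not overlap. With the CA2 sum above the CA3 sum the shares were 0.150% and 0.270% in trained and 0.0946% and 0.125% in untrained libraries (0.88). With nuclei thinned to 600 UMIs they were 0.0332% and 0.107% against 0.0236% and 0.0167% (1.58), from 2, 13, 4 and 2 nuclei. Both gave the smallest possible exact permutation p of 0.333. Set against their neighbours, there were 1.57 and 2.83 CA2-like nuclei per 100 CA3 nuclei in trained and 2.53 and 2.48 in untrained libraries (log2 difference -0.25, exact permutation p = 1), and without Trained replicate 1 the difference was 0.18. CA3 nuclei made up 9.54% and 10.7% of kept nuclei in trained and 5.37% and 7.08% in untrained libraries. Intervals and limits cover counting error only.

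**Figure D4:**
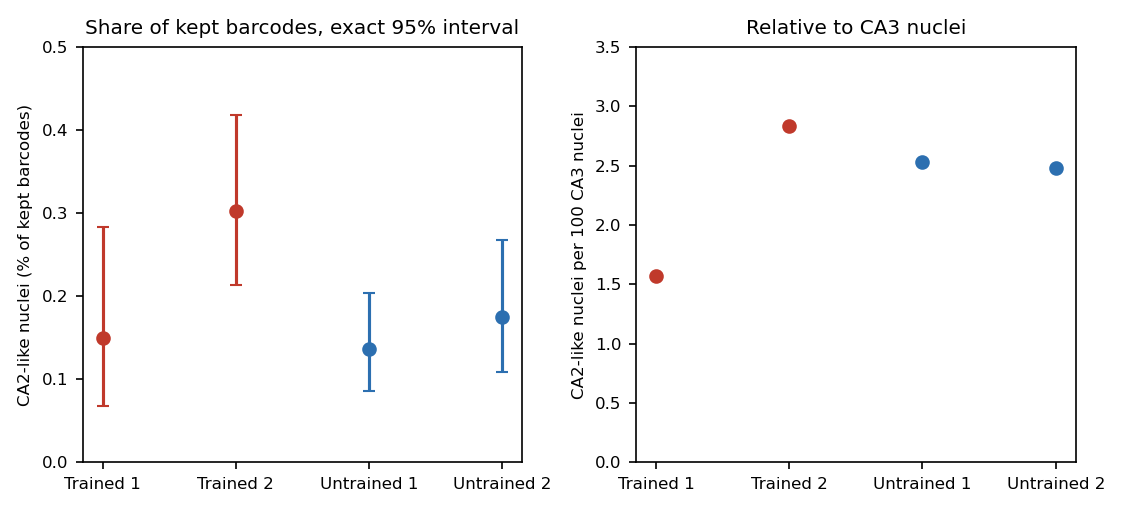
Left, CA2-like nuclei as a percentage of kept barcodes in each library, with exact 95% binomial intervals; right, CA2-like nuclei per 100 CA3 nuclei. Trained replicate 2 is highest on both sides, and Trained replicate 1 is lowest on the right at 1.57.

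Within CA2-like nuclei no gene passed the test of trained against untrained. Of 575 genes past the count filter edgeR called 0 (0%), and 17 lay under the 0.05 level before adjustment. DESeq2 called 0, with 2 at that level. The trained libraries lay above both untrained ones in 13.6% of the genes tested and below both in 15.1%. Apart from the memory and plasticity genes, the genes named next were picked among these, so that their groups do not overlap by choice.

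Etl4, an actin-associated protein also called Sickle tail, had the smallest p. It was at 119 and 109 CPM in Trained replicates 1 and 2, from 1 and 6 UMIs, and at 629 and 464 CPM in Untrained replicates 1 and 2, from 25 and 16 UMIs. The log2 difference was -2.31 (SE 0.51, adjusted p = 0.181), and in CA3 nuclei its 4 values ranged from 530 to 605 CPM with the groups overlapping. Dpp10, an auxiliary subunit of A-type potassium channels, was at 1192 and 420 CPM against 1610 and 1507 CPM, a difference of -1.53 (SE 0.36, adjusted p = 0.181). In CA3 nuclei it was at 678 and 570 CPM against 1363 and 846 CPM. Without Trained replicate 1 both were called (Etl4 -2.28, adjusted p = 0.040, and Dpp10 -1.87, adjusted p = 0.00163), as they were with probable doublets removed (-2.34 and -1.44, both 0.0176), and Etl4 also without Untrained replicate 2 (-2.46, adjusted p = 0.00633). Each fit without a library leaves 1 sample in that arm, which is assumed to vary like the other group. Without Trained replicate 2 the difference of Dpp10 was -0.49. The values of 2 further genes with lower trained levels were -1.52 (SE 0.49) for Basp1, a growth-cone protein, and -1.25 (SE 0.45) for the chaperone Hsp90ab1.

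Of the genes with higher trained levels, Hs6st3 was at 477 and 493 CPM against 201 and 116 CPM, a difference of 1.54 (SE 0.49, adjusted p = 0.768). In CA3 nuclei it was at 1133 and 931 CPM against 1062 and 1184 CPM. Ttr, the transthyretin of the choroid plexus, was at 715 and 730 CPM against 377 and 232 CPM, a difference of 1.19 (SE 0.38, adjusted p = 0.768). In barcodes with at most 350 UMIs Ttr stood at 3056 and 4153 CPM in trained and 1027 and 1672 CPM in untrained libraries, and CA3 and CA1 nuclei were higher in trained libraries too. The part of free Ttr RNA in the CA2-like values was not tested. Pde4dip, a centrosomal and Golgi scaffold, differed by 0.99 (SE 0.44) and Nav2, a cytoskeletal protein, by 0.80 (SE 0.35). Of the 11 memory and plasticity genes 4 passed the count filter and none was called. Their differences were -0.41 (SE 0.56) for Homer1, 0.26 (SE 0.26) for Gria1, 0.12 (SE 0.30) for Camk2a and -0.02 (SE 0.26) for Grin2b.

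**Figure D5:**
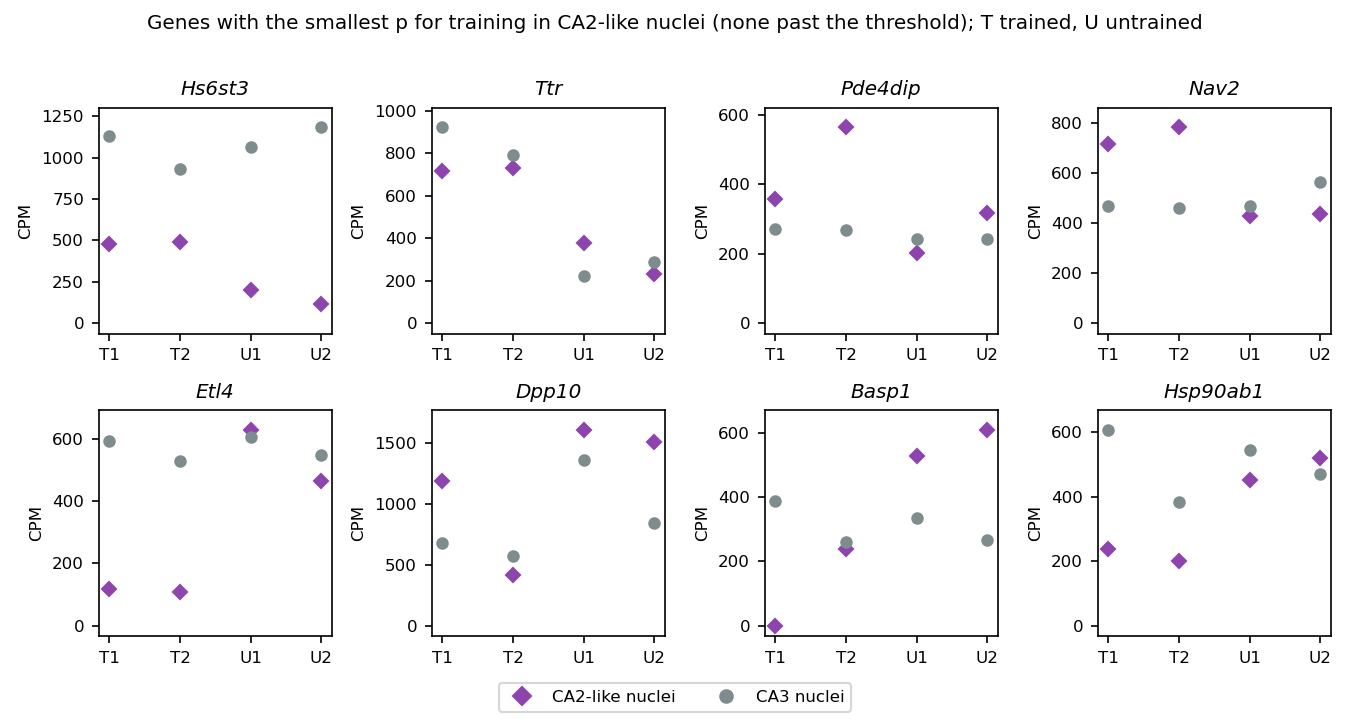
Level in CPM of 8 genes in CA2-like nuclei (purple diamonds), beside CA3 nuclei (grey circles), in Trained (T1, T2) and Untrained (U1, U2) replicates. They had the smallest p for training in each direction among named genes whose CA2-like groups do not overlap, so the gap between groups was a condition of choice. The upper row holds genes with higher and the lower row genes with lower trained levels. Etl4 is at 119 and 109 CPM in trained and 629 and 464 CPM in untrained CA2-like nuclei while its CA3 values stay between 530 and 605 CPM, and none of the 8 genes passed the test.

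Whether training acted differently in CA2-like and CA3 nuclei was tested as a class by training term. Of 4893 genes edgeR called 0 (0%), with 139 under the 0.05 level before adjustment. DESeq2 also called 0, with 40 below that level. Without Trained replicate 2 Malat1, a nuclear noncoding RNA, was called at -0.88 (SE 0.13, adjusted p = 0.028). A difference in training response between the 2 classes was not detectable at this depth.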

How the data were processed

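UMI counts per gene and barcode were deposited by the authors for 4 10x Chromium libraries, written by cellranger 7.0.0 per the file headers; the submitters' processing notes name Cell Ranger 8 with STAR. Totals per library were 23155826, 26369095, 39749125 and 24636056 UMIs. The gate genes, 25 gene lists and tests were chosen with earlier results of these data known.

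Barcodes had no deposited cell types. Counts were summed per gate and library. A sum entered a comparison of classes with at least 10 nuclei. In R 4.3.3, edgeR 4.0.16 (filterByExpr, TMM, quasi-likelihood test, Benjamini-Hochberg adjustment) was fitted, with the library as a block between classes, and the 20 gate genes were not tested. SE is the absolute log2 difference divided by the square root of F. The spread was the same for all genes in the fits between classes, so their p-values rest on an assumed common spread. Doublets were kept; an alternative removed at most 8% of barcodes by similarity to simulated doublets. DESeq2 1.42.0 was another. Named genes are up to 12 called genes per direction with the smallest p on the same side in all 4 libraries, and for training the 4 smallest p per direction whose groups do not overlap, leaving out mitochondrial, ribosomal, predicted and sex genes. Of each list up to 6 called members are named by p. CA2 markers outside the gate and memory genes are named where tested. The fits were tested on simulated data with a wider spread than the one fitted here. Between CA2-like and CA3 nuclei 4 of 95 changes of 2-fold and 38 of 93 of 4-fold were recovered. For training 16 of 84 changes of 2-fold and 79 of 88 of 4-fold were recovered. Most changes of 2-fold were thus missed in both. A few genes that the rule names are not reported here.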

Additional observations from a re-analysis of the deposited data

How the results depend on the processing

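The 24 genes named between CA2-like and CA1 nuclei kept their call in every alternative fitted. Counts of genes called between CA2-like and CA3 nuclei were 111 with at least 4 gate UMIs on the 2 libraries then left (135 on these with the rule as given), 123 with the CA2 sum above the CA3 sum and 54 by DESeq2, and ranged from 99 to 195 with 1 library left out. Between CA2-like and CA1 nuclei they were 173 with at least 4 gate UMIs (207 on the same 2 libraries) and 141 by DESeq2, and 196 to 325 with 1 library left out. Leaving out Trained replicate 1 changes nothing there, since its 9 nuclei never entered. Training calls were 2 with doublets removed and 0 to 2 with 1 library left out, and the class by training term gave 0 to 1. The log2 difference in CA2-like nuclei per CA3 nucleus turned to 0.17 with the CA2 sum above the CA3 sum, to 0.44 with nuclei thinned to 600 UMIs and ranged from -0.68 to 0.18 with 1 library left out; the share of kept nuclei moved from 0.46 to -0.047 without Trained replicate 2 and to at most 0.97 with another library left out, to 0.88 with the CA2 sum above the CA3 sum and to 1.58 with thinning. For gate genes left out of the gate, the difference for Rgs14 ranged from -1.65 percentage points without Untrained replicate 2 to 5.94 without Untrained replicate 1 and was 11.6 with thinning, and for Arhgef26 it was -0.60 with at least 2 gate UMIs and 34.6 with thinning, from 20 and 10 CA2-like nuclei in all. Lhfpl3 moved from -1.68 to 0.18 against CA3 with nuclei carrying inhibitory or thalamic markers left out. The cause was not tested. Replicate numbers do not pair the mice in the labels; deviations of same-numbered libraries correlated at 0.159, a value both pairs must share, and a replicate block gave 0 training calls, with 19 genes below p = 0.05 before adjustment. With at least 4 gate UMIs Trained replicate 1 has no CA2-like nucleus, so the shares have no value there. Thinned to 600 UMIs the class comparisons could not be fitted. Over all alternatives of the genes the naming rule covers, 162 values against CA3 and 115 against CA1 lost a call, and 22 and 41 gained one. Another 1761 and 1902 kept a call and its direction, or had no call in either fit and moved by less than 1 SE. A further 155 and 124 moved without gaining or losing a call, and 1 value against CA3 with a call turned. Where a fit gave no adjusted p, direction alone was judged. Changes of sign among values without a call were not counted apart. Depth limits single genes, since 1 UMI is 18.2 to 119 CPM in the CA2-like sums.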
